A study of Mus musculus with 45 samples.

Results

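The genes described here are 37 markers and regulators of blood and lymphatic endothelium, read by symbol from the count and TPM tables of both cohorts, out of 50600 gene identifiers measured. RNA was sequenced from mouse distal colon in 45 libraries, 44 of which could be placed in 6 groups. In the first cohort these were 8 libraries of untreated wild-type mice, 10 of Il10 knockout mice given vehicle, 9 of knockout mice given compound 13 at 30 mg/kg and 7 of knockout mice given compound 13 at 10 mg/kg. A second cohort of knockout mice, labelled D77 and read here as day 77, held 5 libraries after vehicle and 5 after anti-p40. Il10 encodes an anti-inflammatory cytokine, and mice without it develop colitis, a common model of inflammatory bowel disease. Compound 13 is known here by that name alone. The series title names GPR4, a proton-sensing receptor, as the target of a selective antagonist, and p40 is the subunit shared by interleukins 12 and 23. The deletion is shared by every group except wild type, and there was no treated wild-type group and no wild-type group at day 77. Strain, age, sex, route and duration of treatment are not given in the sources used here, and the labels do not say that each library is its own animal. The p-values below therefore reflect variation from library to library, which may be partly technical.

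Endothelial cells line blood and lymphatic vessels, where they form the barrier between tissue and fluid, guide leukocytes out of the blood and take up growth signals through receptors such as those for vascular endothelial growth factors and angiopoietins. Their identity is kept by transcription factors of the ETS and SOX families, and the lymphatic lineage by Prox1. In the colon wall, blood capillaries run around the crypts and lymphatic vessels lie mainly at the crypt bases and in the submucosa. In bulk tissue, fewer endothelial cells and less RNA per endothelial cell cannot be told apart. Several members are also made by other cells: Pecam1, Icam2 and S1pr1 by leukocytes, Tal1 by erythroid cells, Vwf and Mmrn1 by megakaryocytes and platelets, Pdpn by fibroblastic cells, and Prox1 by some epithelial endocrine cells.

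Total counts were 22682471 to 36279743 per library, of which 3848 to 15888 were counts of the 37 genes, and all 37 passed the expression filter in every comparison. Endothelial junction genes were present in every library. Of the platelet genes followed, Ppbp, Gp9 and Treml1 did not exceed 6 counts in any library. The others, Pf4, Itga2b and Gp1bb, were counted in every library and reached 215, 136 and 206 counts. Tal1 was the member closest to the detection limit, with 0 counts in 2 libraries, where the 3 counts that a 0 allows would amount to 0.132 CPM at the depth of the shallowest library (counting error only). Among the knockout vehicle libraries, number 3 stood apart: its summed TPM (the authors' abundance unit, corrected for gene length and depth) of 8 smooth muscle genes was 6345, against a group median of 1962 and 3819 to 8813 in wild type, and library 8 followed at 4308. One 30 mg/kg library, number 2, had a summed TPM of 4596 for 5 erythroid genes against a group median of 124. For the comparisons that use them, the counts and medians of the endothelial genes without vehicle libraries 3 and 8, and the count without 30 mg/kg library 2, are given below.

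In wild-type colon, Plvap, which forms the diaphragms of fenestrated capillaries, was the most abundant member per length, at 22.7 ± 4.99 TPM (mean ± SD, n = 8). Egfl7, a secreted vascular protein, followed at 17.1 ± 2.62 TPM, and the adhesion molecule Pecam1 at 13.7 ± 2.44 TPM. The hyaluronan receptor Lyve1, a lymphatic marker, came next at 10.6 ± 1.84 TPM, close to the adrenomedullin receptor subunit Ramp2 at 10.3 ± 2.12 TPM and to Vwf, the clotting protein of endothelial granules, at 10.2 ± 3.99 TPM. These 6 genes were the ones at a mean of 10 TPM or more. A further 28 lay between 1 and 10 TPM, and 3 lay below 1 TPM, namely the nitric oxide synthase Nos3 (0.98 ± 0.39) and the transcription factors Sox7 (0.34 ± 0.20) and Tal1 (0.27 ± 0.10). Neighbours in this order mostly lay within 1 SD of each other. Of the lymphatic genes other than Lyve1, the mean level was 9.28 ± 2.61 TPM for Pdpn, 6.16 ± 1.86 for Mmrn1, 2.96 ± 0.78 for Flt4 and 1.01 ± 0.25 for Prox1. The spread between libraries was smallest for the C-type lectin Clec14a, whose SD was 8.99% of its mean, and largest for Sox7, at 58.9%.

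**Figure D1:**
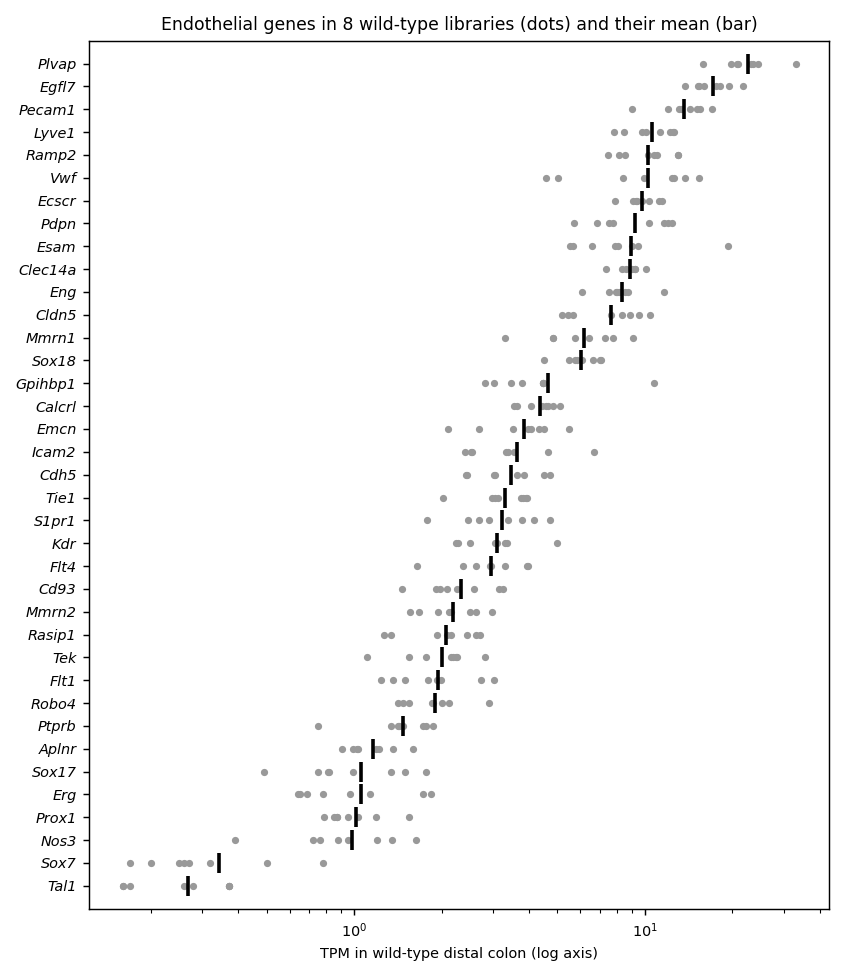
Level of each of the 37 endothelial genes in wild-type distal colon, in TPM on a log axis, with 1 dot for each of the 8 libraries and a bar at their mean. Plvap is highest at a mean of 22.7 TPM and Tal1 lowest at 0.27 TPM.

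The bases just before the start site of 3 members that were lower in the knockout are shown, since endothelial promoters are known to hold sites for ETS factors, whose core is GGAA. Tek is the angiopoietin receptor, Cldn5 the main claudin of endothelial tight junctions, and Clec14a a surface lectin of vessels. The windows are RefSeq sequence of build GRCm38.p6, given 5′ to 3′ on the gene's strand, at chr4:94739039-94739288 (plus strand) for Tek, chr16:18776597-18776846 (plus strand) for Cldn5 and chr12:58269291-58269508 (minus strand) for Clec14a, with any CAGGAA or its reverse complement TTCCTG in capitals. Those of Tek and Cldn5 hold 250 bases, and that of Clec14a is shown for 218 bases, up to the annotated start of the gene.
Tek: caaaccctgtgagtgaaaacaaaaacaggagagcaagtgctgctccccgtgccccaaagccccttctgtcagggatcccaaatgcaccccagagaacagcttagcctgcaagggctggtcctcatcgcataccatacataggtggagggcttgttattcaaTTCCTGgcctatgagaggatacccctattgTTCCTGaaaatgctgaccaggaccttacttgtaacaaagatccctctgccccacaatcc
Cldn5: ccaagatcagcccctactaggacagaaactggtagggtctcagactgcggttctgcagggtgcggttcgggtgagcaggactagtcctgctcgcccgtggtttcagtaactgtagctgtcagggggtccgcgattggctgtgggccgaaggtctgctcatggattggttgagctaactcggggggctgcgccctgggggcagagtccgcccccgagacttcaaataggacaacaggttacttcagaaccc
Clec14a: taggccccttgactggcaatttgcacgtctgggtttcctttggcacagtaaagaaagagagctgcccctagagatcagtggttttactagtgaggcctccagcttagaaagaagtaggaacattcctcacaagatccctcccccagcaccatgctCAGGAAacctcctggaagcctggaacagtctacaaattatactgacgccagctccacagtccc
The Tek window held 2 matches, the Clec14a window 1 and the Cldn5 window none, nor did any of these windows hold the related CCGGAA on either strand. RefSeq windows were at hand for 18 of the 37 members. Searching the first 250 bases of every RefSeq window on both strands, CAGGAA was in at least 1 window of 10 of the 18 members and of 28.3% of 27025 genes. The SOX core ACAAT was found for 8 of 18 members and 30.9% of genes, CCGGAA for 1 of 18 and 13.6%, and the GATA core AGATAA for 2 of 18 and 11.4%. These are matches of letters, and whether a factor binds there was not measured.

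The first comparison set the knockout given vehicle against untreated wild type, so effects of the deletion and of vehicle cannot be told apart. In it, 9 of the 37 endothelial genes were lower and 1 was higher by edgeR's quasi-likelihood test at an adjusted p under 0.05, where 49.4% of the 16435 genes tested were called, 25.2% higher and 24.1% lower. The share of endothelial genes called was thus below that of all genes, and they were mostly called in one direction. The lower members were Lyve1, the lymphatic growth factor receptor Flt4, Cldn5, the adhesion molecule Esam, Clec14a, the angiopoietin receptor pair Tek and Tie1, the transcription factor Sox18 and Ramp2. The higher one was Ecscr, a regulator of endothelial migration and signalling. The median log2 fold change of the 37 genes was -0.17, against -0.01 over all genes tested, and 27 of 37 estimates lay below 0. At an unadjusted p under 0.05 there were 14 of the 37, where the share of all genes was 56.3%. Of the general endothelial genes, Pecam1, Cdh5 and Kdr did not pass the test, whereas Tie1 and Esam were among the lower ones.

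Of the surface and junction genes, Cldn5 lay between 4.18 and 8.19 CPM (counts scaled to library size; median 6.24) in the 8 wild-type libraries. In the 10 knockout vehicle libraries it lay between 1.34 and 8.73, with a median of 2.71. All but 2 of the knockout libraries were below every wild-type library, and the highest value of all was a knockout one. The log2 fold change was -0.88 ± 0.30 (SE; edgeR adjusted p = 0.0231, n = 10 and 8). Esam ranged from 5.61 to 9.64 CPM in wild type (median 8.47) and from 2.82 to 11.5 CPM in the knockout (median 4.73). Its log2 fold change was -0.57 ± 0.22 (edgeR adjusted p = 0.0359), with the groups overlapping, and the call was lost in 11 of the 18 fits that left out 1 library. Clec14a fell by less, with a log2 fold change of -0.43 ± 0.09 (edgeR adjusted p = 0.00146), but its spread was small: wild type held 23.6 to 30 CPM and 9 of the 10 knockout libraries were below that range.

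Pecam1, which joins endothelial cells to each other and to leukocytes, ranged from 19.2 to 33.7 CPM in wild type (median 28.8) and from 19 to 40.9 CPM in the knockout (median 24.9). The 2 groups overlapped over nearly their whole range, and the log2 fold change was -0.11 with a 95% interval from -0.39 to 0.17 (edgeR adjusted p = 0.503). Cdh5, the cadherin that seals endothelial junctions, ranged from 6.48 to 11.7 CPM (median 8.99) and from 4.83 to 12.6 CPM (median 8.43), with a log2 fold change of -0.13 and a 95% interval from -0.51 to 0.25 (edgeR adjusted p = 0.569). The remaining members of this kind, Icam2, Emcn, Eng, Cd93, Robo4, Plvap and Gpihbp1, had estimates from -0.36 (Emcn) to 0.48 (Icam2) and none passed the test.

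Ecscr went the other way. Its 8 wild-type values lay between 4.16 and 5.95 CPM (median 4.98), and its 10 knockout values between 5.85 and 19.2 CPM (median 7.35). All but 1 of the knockout libraries were above every wild-type library, and the log2 fold change was 0.86 ± 0.21 (edgeR adjusted p = 0.00289). The exons of Ecscr, on chromosome 18, overlap in the annotation those of 1700066B19Rik, a gene on the opposite strand. That gene rose too, from 4.09 to 7.04 CPM in wild type to 8.89 to 40.2 CPM in the knockout, with a log2 fold change of 1.96 ± 0.21 (edgeR adjusted p = 3.7e-06). Whether the counting used strand is not given in the sources used here, so reads of the 2 genes cannot be told apart where they overlap.

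Among the growth factor receptors, those of the lymphatic and angiopoietin systems were lower. Flt4, the receptor for the lymphatic growth factor Vegfc, ranged from 7.12 to 16.6 CPM in wild type (median 11.7) and from 4.03 to 13.8 CPM in the knockout (median 5.96). Of the 10 knockout libraries, 7 were below every wild-type library, and the log2 fold change was -0.82 ± 0.23 (edgeR adjusted p = 0.00687). Tie1, the partner receptor of Tek, ranged from 5.6 to 10.7 CPM (median 9.2) in wild type and from 3.17 to 9.88 CPM (median 5.96) in the knockout, a log2 fold change of -0.57 ± 0.19 (edgeR adjusted p = 0.0212). Tek had a log2 fold change of -0.47 ± 0.19 (edgeR adjusted p = 0.0427), which was lost in 12 of 18 fits that left out 1 library. The main receptor for Vegfa, Kdr, ranged from 8.99 to 18.8 CPM (median 12.1) and from 8.29 to 19.4 CPM (median 15.5), with a log2 fold change of 0.28 and a 95% interval from -0.04 to 0.60 (edgeR adjusted p = 0.139). Flt1, a second Vegfa receptor, had 0.26 ± 0.17, and the vascular phosphatase Ptprb 0.02 ± 0.16, neither of which passed the test.

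Of the 6 transcription factors, all had estimates below 0 and 1 passed the test. Sox18, which acts in vessel and lymphatic development, ranged from 4.32 to 6.94 CPM in wild type (median 5.67) and from 2.13 to 7.79 CPM in the knockout (median 3.42). Here 8 of 10 knockout libraries were below every wild-type library, and the log2 fold change was -0.62 ± 0.21 (edgeR adjusted p = 0.0207). Its relative Sox17, linked to arterial identity, had a larger but less certain estimate of -0.82 ± 0.39 (edgeR adjusted p = 0.0866), at 2 to 48 counts per library in these groups. Erg, Sox7, Tal1 and Prox1 had estimates between -0.28 (Sox7) and -0.005 (Prox1) and did not pass.

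For the receptors that couple to G proteins, Ramp2, the accessory subunit that turns the receptor Calcrl into an adrenomedullin receptor, had a log2 fold change of -0.49 ± 0.16 (edgeR adjusted p = 0.0207), and all 10 knockout libraries were below the wild-type mean. The Ramp2 exons overlap those of Vps25 on the same strand, which had a log2 fold change of 0.19 ± 0.06 (edgeR adjusted p = 0.0148), so the 2 genes moved in opposite directions. Calcrl itself was at -0.27 ± 0.12 (edgeR adjusted p = 0.0729), the apelin receptor Aplnr at 0.23 ± 0.19 and the sphingosine phosphate receptor S1pr1, which keeps vessels tight, at 0.34 ± 0.26. No member passed among Vwf, Egfl7, Mmrn1, Mmrn2, Nos3 and Rasip1, the secreted proteins, enzymes and signalling genes, although Mmrn1, a matrix protein of lymphatic vessels and platelets, was just outside the threshold at -0.96 ± 0.40 (edgeR adjusted p = 0.0501).

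Lyve1, at chr7:110850607-110863239 on the minus strand (mm10), had the largest decrease of the 37 in estimate. It lay between 14.7 and 24.2 CPM in the 8 wild-type libraries (median 19.8) and between 3.58 and 15.7 CPM in the 10 knockout vehicle libraries (median 8.19). Of the knockout libraries, 8 were below every wild-type library and all 10 were below the wild-type mean. The log2 fold change was -1.11 ± 0.21 (edgeR adjusted p = 0.000435), and it stayed between -1.23 and -1.01 when any single library was left out. As a set, the 5 lymphatic genes Lyve1, Prox1, Flt4, Pdpn and Mmrn1 had a median of -0.82. Of these 5, 2 were lower and none higher, where 24.1% of all genes were lower. Without vehicle libraries 3 and 8, chosen after the data were seen, their median was -1.14, with 4 of 5 lower, where 30.3% of all genes were lower. Their values were uneven: Pdpn was at -0.31 ± 0.16 (edgeR adjusted p = 0.12), and Prox1, the transcription factor of the lymphatic lineage, at -0.005 ± 0.185 (edgeR adjusted p = 0.986).

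**Figure D2:**
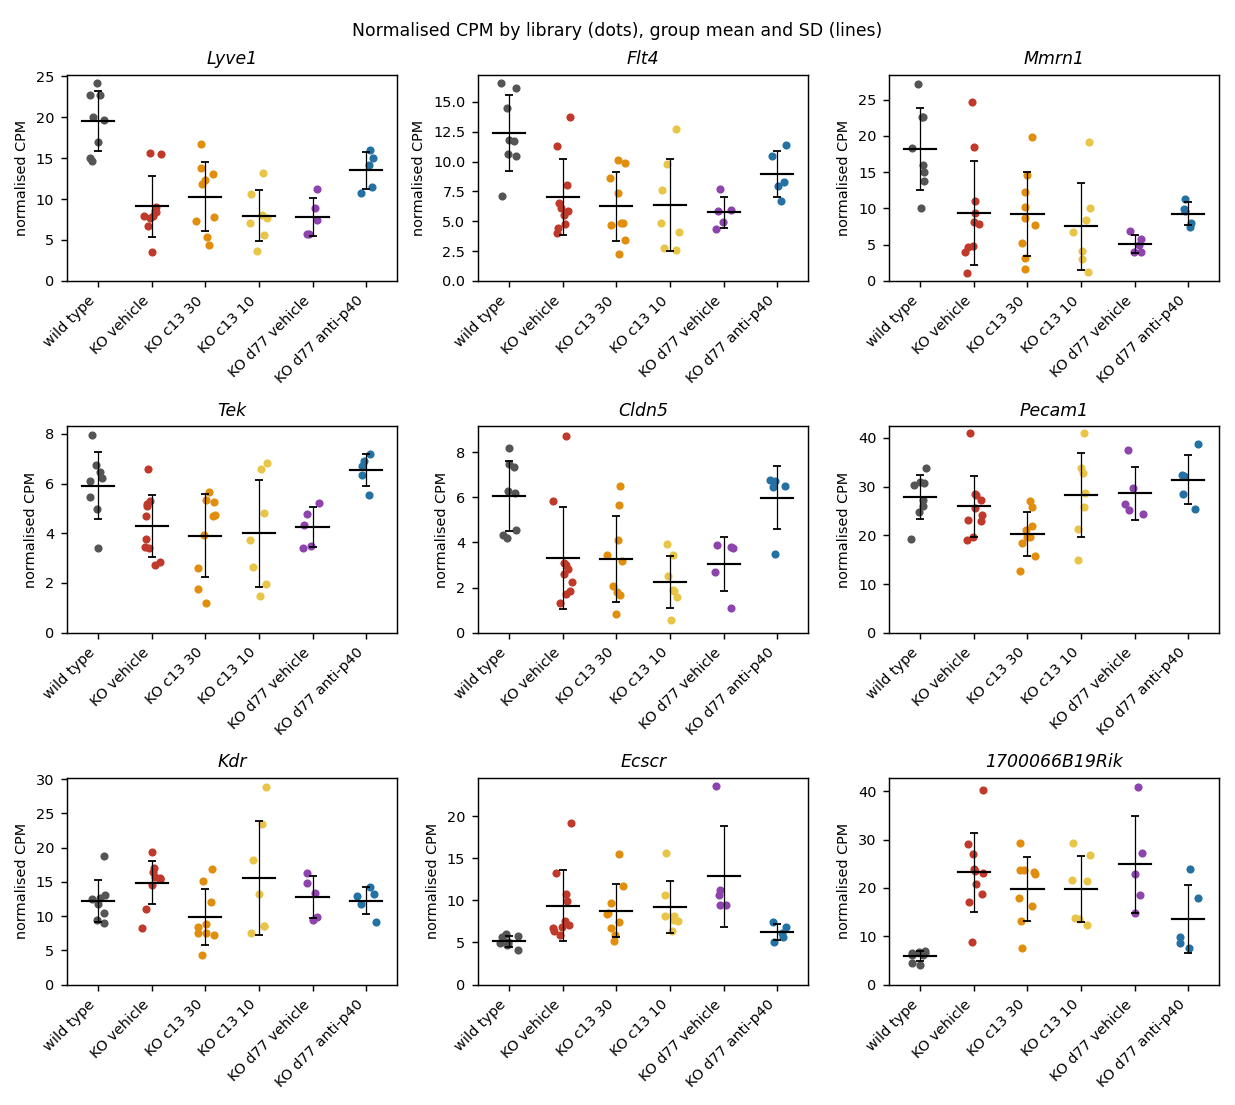
Normalised CPM of 8 endothelial genes and of 1700066B19Rik, which overlaps Ecscr, in every library of the 6 groups (1 dot per library, bar at the group mean). Lyve1 lies between 14.7 and 24.2 CPM in wild type and between 3.58 and 15.7 CPM in knockout vehicle, while the Pecam1 and Kdr values of these groups overlap.

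Genes of other cell types in the gut wall moved in the same comparison, and their part in the endothelial result was not tested. All 8 smooth muscle genes were lower, with log2 fold changes from -1.51 (Myh11) to -1.17 (Des), and their summed TPM ranged from 3819 to 8813 in wild type and from 241 to 6345 in the knockout. Also lower were 6 of 7 fibroblast genes, 5 of 7 genes of enteric glia and neurons, and 3 of 7 pericyte genes tested, among them the pericyte marker Rgs5 at -0.93 ± 0.30 (edgeR adjusted p = 0.0159). All 8 leukocyte genes were higher, from 0.51 (Adgre1) to 1.81 (Cd3e). Of 6 epithelial genes, 5 were higher, with a median log2 fold change of 0.67 over the 6, the highest being the keratin Krt20 (2.10 ± 0.28, edgeR adjusted p = 3.15e-05). Their summed TPM ranged from 6689 to 7570 in wild type and from 6906 to 12912 in the knockout. Knockout libraries 3 and 8, with the most smooth muscle RNA of their group, also had the highest summed TPM of the 37 endothelial genes, at 246 and 186 against a group median of 147. Without library 3, 15 of the 37 genes were called, 14 of them lower, where the share of all genes called was 55.7%. Without both libraries 16 were called, 15 of them lower, where the share of all genes was 58.3%, against 49.4% with them. The median log2 fold change of the 37 genes was then -0.30, and 29 estimates lay below 0. The 6 added calls were Sox17, Calcrl, Vwf, Mmrn1, Mmrn2 and Pdpn. Libraries 3 and 8 were chosen after the data were seen and held the highest endothelial sums of their group. Lower estimates without them therefore followed from the choice. Without wild-type library 4, 7 genes were called, 6 of them lower, where the share of all genes was 43.5%.

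**Figure D3:**
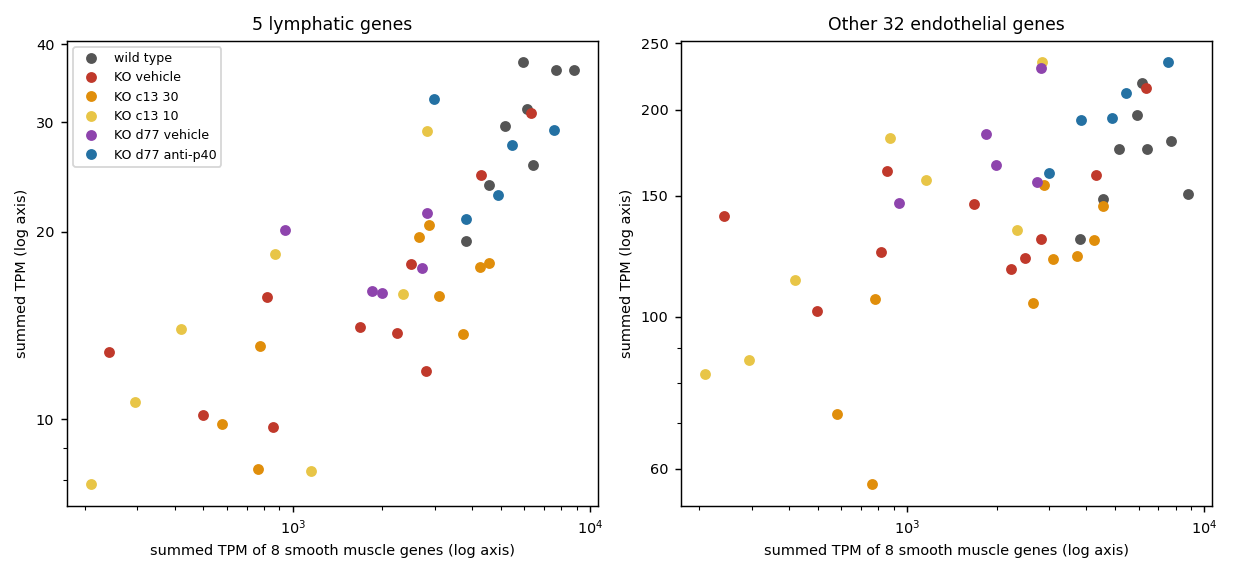
Summed TPM of the 5 lymphatic genes (left) and of the other 32 endothelial genes (right) against the summed TPM of 8 smooth muscle genes, all on log axes, 1 dot per library coloured by group. The wild-type libraries lie at 3819 to 8813 TPM of smooth muscle genes, and of the knockout vehicle libraries 2, numbers 3 and 8, reach that range.

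Scaling and the choice of fit bore on these counts. With libraries scaled to their total count, the median of all genes moved from -0.01 to -0.16 and 32.8% rather than 51.1% of the called genes were higher, and with limma on log2(TPM + 1) 26.5% were. Under both, and under limma voom, 13 endothelial genes were lower and 1 was higher. The share lower was 35.1% of members with total counts, 37.1% of the 35 tested with TPM and 35.1% with voom. Over all genes it was 34.4%, 37.3% and 28.1%. Counts were smaller in 2 other settings. In 1 fit of 4 groups, with both compound 13 groups included, 38.3% of all genes were called and 4 endothelial genes were lower (Lyve1, Flt4, Cldn5 and Clec14a) and 1 higher (Ecscr), so that the calls of Esam, Tek, Tie1, Sox18 and Ramp2 were lost. Without the expression filter 8 were lower and 1 was higher, Tek being lost, where 28.5% of all genes were called. In the authors' deposited table for this comparison, 12 of the 37 genes were lower and 1 was higher at an adjusted p under 0.05, with 50.7% of all genes called. The 3 genes lower there and not in the edgeR fit were Calcrl, Vwf and Mmrn1.

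The ligands of these receptors were followed as a fixed list of 15, of which 10 could be tested. Adm, the adrenomedullin peptide that signals through Calcrl and Ramp2, was higher in the knockout (log2 fold change 0.86 ± 0.30, edgeR adjusted p = 0.0231), at 7.56 to 46.5 CPM against 6.5 to 10.3 CPM in wild type. Angpt1, the activating ligand of Tek, was lower (-0.97 ± 0.17, edgeR adjusted p = 0.000286), at 0.99 to 1.99 CPM against 2.23 to 3.27 CPM, so that its 2 groups did not overlap. The other 8 did not pass, among them Vegfa at 0.27 ± 0.11 (edgeR adjusted p = 0.051) and Vegfc at -0.27 ± 0.17. Of 38 further endothelial genes, 37 could be tested, and 8 were higher and 10 lower, where 25.2% of all genes were higher and 24.1% lower. The highest 3 were Ets1 (1.05), Esm1 (1.04) and Notch4 (1.02), and the lowest 3 Gja5 (-1.21), Cd34 (-1.18) and Hey1 (-1.14). Ets1 is also made by lymphocytes and Cd34 by fibroblasts. Gpr4, the receptor named in the series title, was at 0.26 ± 0.25 (edgeR adjusted p = 0.406).

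The next comparisons asked whether compound 13 changed endothelial genes in the knockout colon. None of the 37 was called at 30 mg/kg against vehicle, at 10 mg/kg against vehicle, or between the doses, where 0%, 0.0118% and 0% of 16948 genes were called by edgeR (at 10 mg/kg 0.0059% in each direction). DESeq2 called none of the 37 either. Over all genes it called 3 lower at 30 mg/kg, 30 higher and 42 lower at 10 mg/kg, and 114 higher and 229 lower between the doses. At an unadjusted p under 0.05, edgeR counted 6 members at 30 mg/kg, 0 at 10 mg/kg and 7 between the doses, where the shares of all genes were 5.92%, 11% and 14.5%. The median log2 fold change of the 37 was -0.22 at 30 mg/kg and 0.04 at 10 mg/kg, against 0.00 and -0.02 over all genes. These 3 comparisons share libraries and one fit. Without vehicle libraries 3 and 8, the 6 members at 30 mg/kg became 2, the median log2 fold change of the 37 became -0.14, and 25 rather than 33 of the 37 estimates lay below 0. At 10 mg/kg the median became 0.17, with 30 rather than 21 estimates above 0. The median of the 5 lymphatic genes moved from -0.01 to 0.46 at 30 mg/kg and from -0.13 to 0.18 at 10 mg/kg, with all 5 estimates above 0 at both doses, and again no member was called. Vehicle libraries 3 and 8 were chosen after the data were seen and had the highest summed TPM of the 37 genes in their group. Leaving them out lowers the vehicle level, so an upward move of the 37 genes followed from the choice.

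At 30 mg/kg, 33 of the 37 estimates lay below 0, and the 4 members with the smallest p were Flt1, Plvap, Icam2 and Kdr. Kdr ranged from 4.35 to 16.9 CPM (median 8.47) in the 9 treated libraries against 8.29 to 19.4 CPM (median 15.5) with vehicle, and 4 treated libraries were below every vehicle library. Its log2 fold change was -0.59, with a 95% interval from -1.11 to -0.08 (edgeR p = 0.025, adjusted p = 0.835). Flt1 ranged from 4.02 to 10.3 CPM (median 6.18) against 6.5 to 13.6 CPM (median 9.99), a log2 fold change of -0.59 with an interval from -1.05 to -0.14 (edgeR adjusted p = 0.835). Plvap was at 8.77 to 31.5 CPM (median 22.1) against 17.6 to 47.1 CPM (median 28.2), with a log2 fold change of -0.55 and an interval that ended at -0.10. Icam2, an adhesion molecule, was at -0.64, with an interval from -1.19 to -0.10. The groups overlapped for each of these genes, and none passed after adjustment.

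The junction gene Cdh5 ranged from 2.66 to 10.6 CPM (median 6.18) at 30 mg/kg and had a log2 fold change of -0.42 with an interval from -0.96 to 0.12. Pecam1 ranged from 12.6 to 27 CPM (median 19.7), with -0.35 and an interval from -0.68 to -0.01 (edgeR p = 0.0414, adjusted p = 0.835). Lyve1 did not share this direction: it ranged from 4.35 to 16.7 CPM (median 11.8), with 0.19 and an interval from -0.36 to 0.74. At this dose all 8 leukocyte genes also had estimates below 0 (median -0.54) and all 8 smooth muscle genes above 0 (median 0.33), without any call.

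At 10 mg/kg against vehicle, 16 of 37 estimates were below 0 and 21 above, and the smallest p-values belonged to Prox1, Aplnr, Cldn5 and S1pr1. Prox1 ranged from 4.28 to 12 CPM (median 6.71) in the 7 treated libraries and from 3.77 to 9.07 CPM (median 4.76) with vehicle, a log2 fold change of 0.37 with an interval from -0.02 to 0.77 (edgeR adjusted p = 0.475). Aplnr ranged from 0.58 to 4.62 CPM (median 1.55) against 1.94 to 5.07 CPM (median 3.34), with -0.58 and an interval from -1.33 to 0.17. Cldn5 was at -0.55 with an interval from -1.40 to 0.30, and S1pr1 at 0.32 with an interval from -0.18 to 0.83. The fixed reference genes were near 0: Pecam1 at 0.13 (interval -0.22 to 0.49), Kdr at 0.06 (-0.48 to 0.61), Cdh5 at 0.06 (-0.51 to 0.63) and Lyve1 at -0.18 (-0.77 to 0.41). Their ranges were 15 to 40.9, 7.5 to 28.9, 2.66 to 13.4 and 3.6 to 13.2 CPM.

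Between the doses, S1pr1 and Flt1 had the smallest p-values. S1pr1 ranged from 3.25 to 8.12 CPM (median 5.83) at 30 mg/kg and from 6.64 to 14.5 CPM (median 10.1) at 10 mg/kg. Of the 9 libraries at the higher dose, 7 were below every library at the lower dose, and the log2 fold change of 30 over 10 mg/kg was -0.83, with an interval from -1.35 to -0.31 (edgeR p = 0.00286, adjusted p = 0.143). Flt1 was at -0.79, with an interval from -1.28 to -0.30 (edgeR adjusted p = 0.143), Pecam1 at -0.48 (-0.84 to -0.12), Plvap at -0.58 (-1.07 to -0.09), Kdr at -0.66 (-1.21 to -0.10) and Cdh5 at -0.48 (-1.06 to 0.11). Lyve1 was at 0.37 (-0.23 to 0.98). Of the 5 lymphatic genes 3 had estimates above 0 (median 0.06), and of all 37 genes 29 had estimates below 0 (median -0.34 against 0.02 over all genes).

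**Figure D4:**
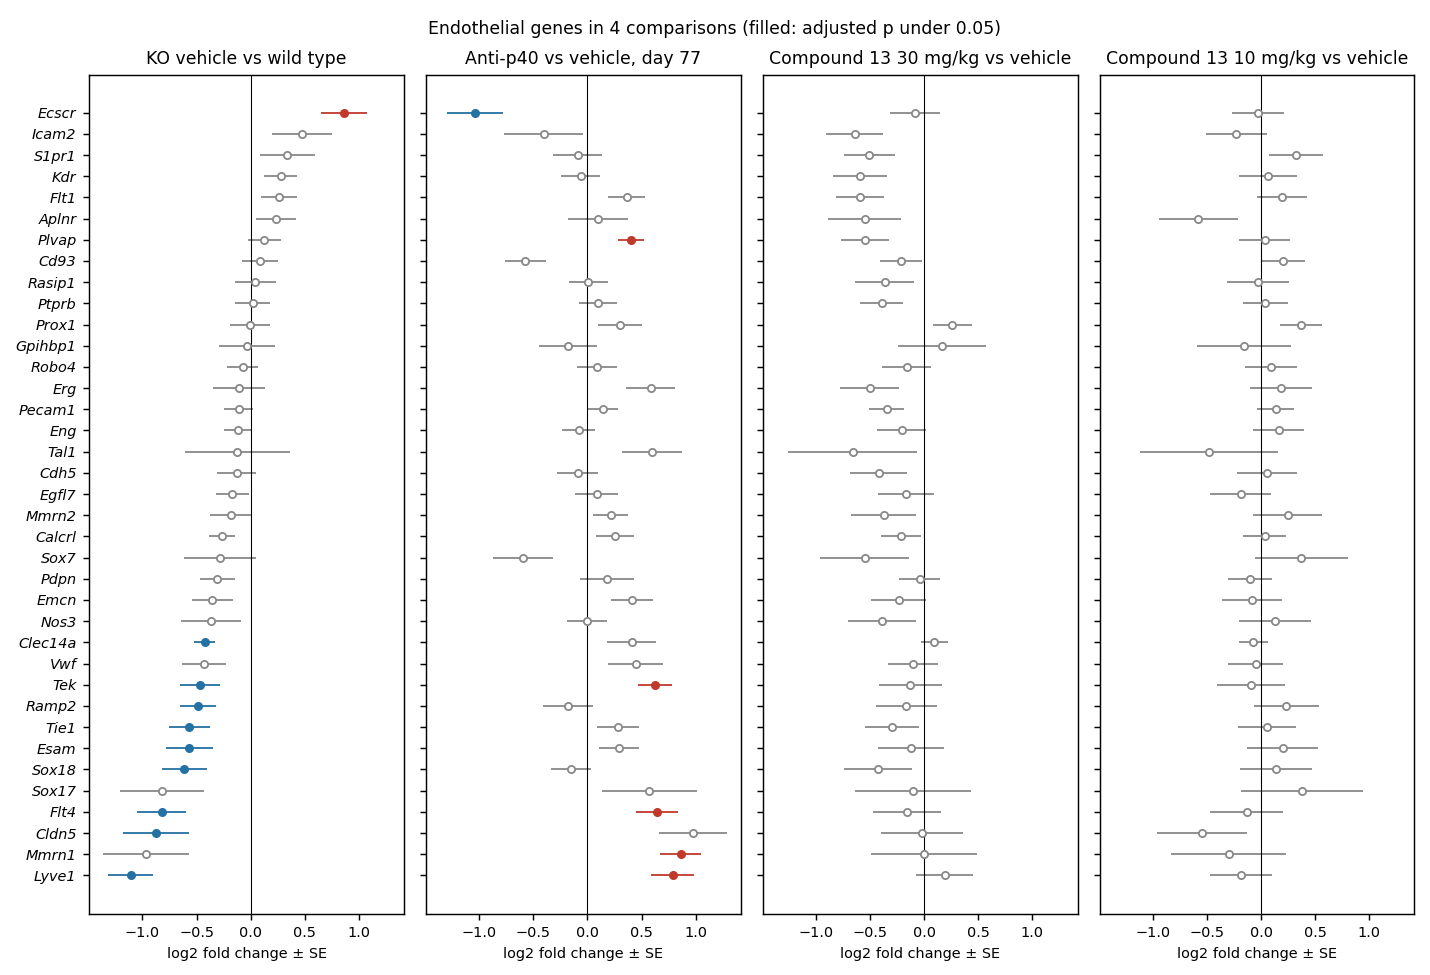
Log2 fold change ± SE of each of the 37 genes in 4 comparisons, filled where the gene was called. The comparisons are knockout vehicle over wild type, 30 mg/kg over vehicle, 10 mg/kg over vehicle, and anti-p40 over vehicle at day 77. Called genes appear in the knockout vehicle panel (10) and the anti-p40 panel (6) and in neither compound 13 panel.

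Each dose was also set against wild type, using the same 8 wild-type libraries as the first comparison. These were untreated, so the deletion and the dosing cannot be told apart here. At 30 mg/kg 12 of the 37 genes were lower and 1 was higher, where 43.9% of 16321 genes were called, 22.6% higher and 21.3% lower. At an unadjusted p under 0.05 there were 21 of the 37, against 52.3% of all genes. The lower ones included Pecam1 (-0.45 ± 0.13, edgeR adjusted p = 0.0103), Cdh5 (-0.54 ± 0.21, edgeR adjusted p = 0.0398), Vwf (-0.53 ± 0.19) and Calcrl (-0.48 ± 0.18), which were not called with vehicle against wild type. The call of Pecam1 held in all 17 fits that left out 1 library, whereas that of Cdh5 was lost in 9, of Calcrl in 7 and of Vwf in 5. Of the other lower genes, Ramp2 lost its call in 12 of these fits, Mmrn1 in 8, Cldn5 in 2 and Clec14a in 1. That these differ between the groups is not shown, since 30 mg/kg against vehicle gave no call. The largest 6 decreases were in Sox18 (-1.04 ± 0.27), Flt4 (-0.98 ± 0.26), Mmrn1 (-0.97 ± 0.36), Lyve1 (-0.92 ± 0.22), Cldn5 (-0.89 ± 0.31) and Tie1 (-0.86 ± 0.23), and Kdr did not pass at -0.31 ± 0.22. Sox18 lay between 0.79 and 4.06 CPM (median 3.01) at this dose, below every one of the wild-type libraries, and Tie1 between 2.16 and 7.65 CPM (median 5.01). Flt4 lay between 2.26 and 10.2 CPM (median 4.89), Mmrn1 between 1.66 and 19.9 CPM (median 8.67), and Cldn5 between 0.848 and 6.51 CPM (median 3.19), all overlapping with wild type. Ecscr, the higher gene, lay between 5.21 and 15.5 CPM (median 8.44), with 7 of the 9 libraries above every wild-type one (0.79 ± 0.18, edgeR adjusted p = 0.00232). Without 30 mg/kg library 2 the count was again 13, but it ranged from 7 to 18 over the libraries left out in turn.

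At 10 mg/kg against wild type, 5 genes were lower and 2 higher, where 47.5% of 16358 genes were called, 24% higher and 23.5% lower. At an unadjusted p under 0.05 there were 8 of the 37, against 54.8% of all genes. The lower ones were Cldn5 (-1.42 ± 0.31, edgeR adjusted p = 0.0014), Lyve1 (-1.29 ± 0.22), Mmrn1 (-1.26 ± 0.42), Flt4 (-0.96 ± 0.31) and Clec14a (-0.49 ± 0.11). Cldn5 lay between 0.58 and 3.94 CPM (median 1.89) at this dose, so the 7 treated libraries were all below the lowest wild-type value of 4.18 CPM. Mmrn1 ranged from 1.24 to 19.2 CPM (median 6.77) against 9.99 to 27.2 CPM (median 17.2) in wild type. Flt4 ranged from 2.58 to 12.7 CPM (median 4.86), overlapping with wild type. Lyve1 and Clec14a (14.0 to 23.4 CPM, median 19.3) were below every wild-type library in all 7, and Ecscr (6.42 to 15.6 CPM, median 8.18) was above. The 2 higher genes were Ecscr (0.84 ± 0.18, edgeR adjusted p = 0.00104) and S1pr1 (0.66 ± 0.20, edgeR adjusted p = 0.0132). Pecam1, Cdh5 and Kdr were at 0.02 ± 0.17, -0.07 ± 0.28 and 0.34 ± 0.27 and did not pass. In this group the smooth muscle genes were lower than in wild type by a median of -2.21, with all 8 called.

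The day 77 cohort asked what anti-p40 changed in the knockout colon. With the antibody 5 of the 37 endothelial genes were higher, namely Mmrn1, Lyve1, Flt4, Tek and Plvap, and 1, Ecscr, was lower, where 16.7% of 16470 genes were called, 8.35% higher and 8.32% lower. At an unadjusted p under 0.05 there were 9 of the 37, against 32.8% of all genes. The median log2 fold change of the 37 was 0.18 against 0.01 over all genes, and 25 of 37 estimates were above 0. Of the 5 lymphatic genes 3 were higher and all 5 estimates were above 0, with a median of 0.65.

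Mmrn1 was at 4.93, 5.73, 3.99, 6.95 and 3.94 CPM in the 5 vehicle libraries and at 9.65, 9.96, 7.42, 11.3 and 7.93 CPM in the 5 anti-p40 libraries. The groups did not overlap, and the log2 fold change was 0.86 ± 0.19 (edgeR adjusted p = 0.0124, n = 5 and 5). Lyve1 was at 5.77, 8.96, 5.77, 11.3 and 7.48 CPM with vehicle and at 10.8, 15, 14.2, 16 and 11.5 CPM with anti-p40. Only the highest vehicle library reached into the anti-p40 range, above the lowest treated one, and the log2 fold change was 0.79 ± 0.20 (edgeR adjusted p = 0.0214). Flt4 was at 5.84, 5.97, 4.31, 7.67 and 4.9 CPM with vehicle and at 8.32, 11.4, 6.66, 10.5 and 7.93 CPM with anti-p40, 4 of the 5 treated libraries being above every vehicle one. Its log2 fold change was 0.65 ± 0.19 (edgeR adjusted p = 0.0418). The other lymphatic genes, Prox1 at 0.30 (edgeR adjusted p = 0.33) and Pdpn at 0.18 (edgeR adjusted p = 0.661), did not pass.

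Tek was at 3.42, 4.34, 3.48, 5.24 and 4.77 CPM with vehicle and at 5.53, 6.89, 6.36, 7.21 and 6.72 CPM with anti-p40. All treated libraries were above all vehicle libraries, and the log2 fold change was 0.62 ± 0.16 (edgeR adjusted p = 0.0232). Plvap was at 35.1, 28.9, 37, 41.3 and 40.2 CPM with vehicle and at 48, 57.5, 40.6, 44.8 and 50.7 CPM with anti-p40, a log2 fold change of 0.41 ± 0.12 (edgeR adjusted p = 0.0392). Cldn5 had the largest increase of all but missed the threshold, at 0.97 (edgeR adjusted p = 0.053). It was at 2.71, 3.78, 1.11, 3.75 and 3.88 CPM with vehicle and at 6.75, 6.48, 3.48, 6.47 and 6.72 CPM with anti-p40, 1 treated library lying within the vehicle range.

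Ecscr was at 9.44, 11.2, 23.5, 10.6 and 9.46 CPM with vehicle and at 6.1, 7.49, 5.12, 5.69 and 6.88 CPM with anti-p40. The groups did not overlap, although 1 vehicle library was far above the rest, and the log2 fold change was -1.04 ± 0.26 (edgeR adjusted p = 0.021). The overlapping gene 1700066B19Rik lay between 14.9 and 40.8 CPM with vehicle (median 22.9) and between 7.6 and 23.9 CPM with anti-p40 (median 9.9), with -0.88 ± 0.36 (edgeR adjusted p = 0.112), and its reads cannot be told apart from those of Ecscr where they overlap.

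The general endothelial genes Pecam1, Cdh5 and Kdr showed no call. The absence of a call did not extend to all genes outside the lymphatic list, since Tek and Plvap were called higher, as given above. Pecam1 was at 29.6, 24.3, 25.2, 37.5 and 26.3 CPM with vehicle and at 25.5, 38.7, 28.4, 32.1 and 32.4 CPM with anti-p40, a log2 fold change of 0.14 with a 95% interval from -0.17 to 0.45. Cdh5 was at 9.75, 6.21, 10.5, 11.9 and 9.7 CPM against 7.46, 11.7, 8.81, 9.53 and 7.54 CPM, with -0.09 and an interval from -0.50 to 0.32. Kdr was at 13.4, 9.83, 9.49, 14.9 and 16.4 CPM against 9.11, 12.9, 14.3, 13.3 and 11.7 CPM, with -0.06 and an interval from -0.45 to 0.33. These 3 sets of values overlapped throughout. The transcription factors ranged from -0.60 (Sox7) to 0.60 (Tal1) without a call, and of the receptors that couple to G proteins and their partner Ramp2 none passed.

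These calls rested on few libraries. Mmrn1 and Ecscr were called whichever single library was left out, Lyve1 in 8 of 10 such fits, Tek in 7, and Flt4 and Plvap in 3 each. The count of 6 fell to 2 without anti-p40 library 2 or 4, to 3 without vehicle library 1 and to 4 without anti-p40 library 1. Without the expression filter 3 were higher and 1 lower, where 7.88% of all genes were called. Total count scaling and limma on log2(TPM + 1) or log2(TPM + 0.1) each gave 4 higher and 1 lower, with 14.7%, 11.9% and 11.6% of all genes called. In each of these settings 2 of the 5 lymphatic genes were called. DESeq2 called 6 genes higher and 2 lower, with 20.4% of all genes called. The authors' deposited table likewise listed 6 higher and 2 lower with 21.9% of all genes called, the additions in that table being Cldn5 (0.96) and Cd93 (-0.59). Cd93, a surface lectin, was at -0.57 with an adjusted p of 0.06 in edgeR.

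Other cell types moved with anti-p40 as well, and their part in the endothelial values was not tested. Smooth muscle genes were higher in 6 of 8 cases (median 1.17), with a summed TPM of 2994 to 7542 against 938 to 2829 with vehicle. The pericyte genes Rgs5 (0.84 ± 0.20) and Kcnj8 (0.99 ± 0.24) and 2 of 7 genes of enteric glia and neurons were higher, and 4 of 8 leukocyte genes were lower, Cd3e by the most (-1.84 ± 0.31). Of 6 epithelial genes 1 was lower. The summed TPM of the 5 lymphatic genes was 21 to 32.7 with anti-p40 and 15.9 to 21.5 with vehicle. For the other 32 endothelial genes these ranges were 162 to 235 and 147 to 230, and so overlapped widely, with medians of 195 and 166. The medians of the lymphatic sum were 27.6 and 17.5. Among the ligands Adm was lower (-1.26 ± 0.29, edgeR adjusted p = 0.0144) and Calcb, a calcitonin gene-related peptide made by neurons, was higher (3.12 ± 0.33, edgeR adjusted p = 0.000358), at 3.54 to 7.52 CPM against 0.28 to 0.87 CPM. Of the 37 further endothelial genes tested 5 were higher and none lower, where 8.35% of all genes were higher and 8.32% lower. The highest 3 were Rgcc (0.78), Nrp2 (0.77) and Hey1 (0.72), and Gpr4 was at -0.35 ± 0.28 (edgeR adjusted p = 0.424).

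Set side by side, the log2 fold changes in knockout vehicle against wild type and in anti-p40 against day 77 vehicle, which share no library, were -1.11 and 0.79 for Lyve1, -0.82 and 0.65 for Flt4, -0.47 and 0.62 for Tek, and 0.86 and -1.04 for Ecscr, each called in both comparisons. These 4 were 10.8% of the 37 genes. Of the 16111 genes tested in both comparisons, 13.4% were called in both in opposite directions and 20 genes were called in both in the same direction, so the share of endothelial genes was near that of all genes. The 6 other genes lower in the knockout (Cldn5, Esam, Clec14a, Tie1, Sox18 and Ramp2) were not called with anti-p40, and their estimates there were 0.97, 0.29, 0.41, 0.29, -0.15 and -0.18.

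Whether anti-p40 and compound 13 at 30 mg/kg differed in effect, each taken against its own cohort's vehicle, was tested directly. None of the 37 was called, where 1.65% of 18021 genes were called by edgeR (0.444% higher and 1.2% lower), and DESeq2 called none of the 37 either. At an unadjusted p under 0.05 there were 4 members (Plvap, Flt1, Erg and Ecscr), where the share of all genes was 15.5%. The estimates, as anti-p40 minus 30 mg/kg on the log2 scale, were 0.96 ± 0.32 for Plvap (edgeR adjusted p = 0.113), 0.96 ± 0.33 for Flt1, 1.09 ± 0.41 for Erg and -0.95 ± 0.35 for Ecscr. Lyve1 was at 0.60 ± 0.39, Kdr at 0.53 ± 0.37, Pecam1 at 0.49 ± 0.25 and Cdh5 at 0.33 ± 0.38. The median of the 37 was 0.48 against 0.04 over all genes. The cohorts also have separate vehicle groups, and only the second is labelled with a day. A difference between the cohorts cannot be told apart from one between the treatments.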

How the data were processed

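Libraries were made from distal colon RNA by poly(A) enrichment, per the labels' protocols. Of tools, the submitters' processing notes name STAR 2.7.8a, RSEM 1.3.3, cutadapt 3.7 and DESeq2 1.30.1, and mm10 as the build. The authors deposited estimated counts per gene (expected counts, not all whole) and TPM, and 4 tables of their own comparisons that hold log2 fold changes and p-values, raw and adjusted, per the file headers. How strand and overlapping genes were counted is not given in the sources used here. Symbols and coordinates came from GENCODE M21 (50376 of 50600 identifiers matched). In it 8 of the 37 genes have an exon that overlaps another counted gene.

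For the tests, counts rounded to integers went into edgeR 4.0.16 (TMM scaling, default expression filter, robust quasi-likelihood fit) in R 4.3.3. Each p-value was adjusted by the Benjamini-Hochberg method over all genes tested, with 0.05 as the threshold for a call. Each comparison was fitted on its own groups, the 3 between compound 13 doses and vehicle in one fit of 3 groups, and the difference of effects on all 6 groups. CPM per library were scaled by TMM over all 45 libraries. Levels between genes are the authors' TPM. Alternatives were DESeq2 1.42.0, other scalings, no filter, limma 3.58.1 (voom, and log2(TPM + 1) or log2(TPM + 0.1) for genes with a mean TPM of at least 0.5), and leaving out libraries in turn. The procedure was tested on simulated data in which few genes changed. That setting differs from the comparisons with wild type, where many genes were called.

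The 37 genes and the other lists were chosen with earlier results of these data known. Per-library values are given for up to 6 called members in each direction, for the 4 with the smallest p where none was called, and always for Pecam1, Cdh5, Kdr and Lyve1. From the other lists, up to 3 genes in each direction and Gpr4 are named. Further genes named were chosen after their values were seen. The 1 library whose title and treatment field disagree on the dose entered no comparison.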

Additional observations from a re-analysis of the deposited data

Results flagged for a closer look

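Single libraries were compared with the rest of their group for 20 genes in 6 groups (120 combinations), and in 9 the highest or lowest library stood apart by Dixon's ratio of its gap to the group's range. Chance gives about 1 in 20 such groups. Knockout vehicle library 3, which also had the most smooth muscle RNA of its group, was high for Pecam1 (40.9 CPM) and Esam (11.5 CPM), and vehicle library 9 was high for Clec14a (29.9 CPM). At day 77, vehicle library 3 was high for Ecscr (23.5 CPM) and low for Clec14a (7.95 CPM), and anti-p40 library 3 was low for Cldn5 (3.48 CPM). In wild type, library 7 was high for Kdr (18.8 CPM) and library 5 for Prox1 (8.12 CPM), and at 10 mg/kg library 1 was high for Prox1 (12.0 CPM).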

How the results depend on the processing

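No paired analysis was possible because replicate numbers follow accession order and pair nothing. Counts here are of the 37 genes called. Leaving out each library in turn gave 7 to 15 for knockout vehicle against wild type, 2 to 7 for anti-p40, 7 to 18 for 30 mg/kg against wild type and 7 to 10 for 10 mg/kg against wild type. It gave 0 throughout for the 3 comparisons of compound 13 with vehicle or between doses. Leaving out vehicle libraries 3 and 8, and leaving out libraries for the compound groups against wild type, were chosen after seeing the data. The first gave 16 in place of 10 for knockout vehicle against wild type, and 1 fit of 4 groups gave 5. At 30 mg/kg against wild type, total count scaling and limma on log2(TPM + 1) or log2(TPM + 0.1) each gave 25 in place of 13. The share of all genes called was then 52.9%, 52.9% and 52.7%, in place of 43.9%. At 10 mg/kg both TPM settings gave 14 in place of 7, where 51.2% and 51.1% of all genes were called, in place of 47.5%. In the TPM settings 35 of the 37 genes were tested. Scaling to total counts moved the median of all genes from -0.01 to -0.24 at 30 mg/kg and from -0.03 to -0.27 at 10 mg/kg, and the share of calls that were higher from 51.4% to 21.5% and from 50.6% to 27.2%. The cause of the other moves was not tested.

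Estimates that changed sign all belonged to genes not called. At 10 mg/kg against vehicle, Cdh5 became -0.0266 under voom, -0.0766 on log2(TPM + 1) and -0.175 on log2(TPM + 0.1), and ranged from -0.0882 to 0.216 over libraries left out. Kdr became -0.0838, -0.103 and -0.18 and ranged from -0.164 to 0.184, and Lyve1 became 0.0938 without vehicle libraries 3 and 8. With anti-p40, Cdh5 became 0.064 and 0.0838 in the TPM settings and ranged from -0.215 to 0.0023, and Kdr became 0.0299 and 0.047 and ranged from -0.166 to 0.0418. At 10 mg/kg against wild type, Pecam1 became -0.181 with total counts and -0.302 and -0.335 in the TPM settings, and ranged from -0.0874 to 0.131. Kdr became -0.0361 and -0.0963 there, and Cdh5 ranged from -0.208 to 0.0857. The cause of these was not tested.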

Other observations

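One knockout library was in no comparison, because its title gives 30 mg/kg of compound 13 and its treatment field 10 mg/kg. At a depth of 35001079 counts it had 14.7 CPM of Lyve1, 16.4 of Mmrn1, 8.13 of Flt4, 5.49 of Cldn5 and 6.56 of Tek. Pecam1 was at 29.0 CPM, Cdh5 at 7.91, Kdr at 16.8, Plvap at 28.6 and Ecscr at 8.07. The summed TPM was 174 for the 37 endothelial genes, 20.4 for the 5 lymphatic ones and 2813 for the 8 smooth muscle genes.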
